A study of Danio rerio with 27 samples.

Results

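The comparison described here is the dependence on tissue of the effect of losing spic. For each gene it is the mutant minus sibling difference in gill minus the same difference in epidermis, on the log2(TPM + 1) scale. All 27 of the 27 libraries entered it, together with the 13465 of 32520 genes that reached 1 TPM (the expression unit of the table, scaled per transcript length and to a fixed total per library) in at least 5 libraries. The cells came from adult zebrafish of the strain Tg(spic:EGFP; mpeg1:DsRedx), in which EGFP reports spic and DsRedx reports the macrophage gene mpeg1, and the gate kept EGFP-positive cells without DsRedx. The 4 groups were sibling epidermis with 7 libraries, spic mutant epidermis with 7, sibling gill with 5 and spic mutant gill with 8. Every library was made from 30 sorted cells with the Smart-seq2 protocol, and all groups carried both reporters, so that mutant cells too were selected by a reporter of the mutated gene. The labels do not state the mutant allele, the full genotype of the siblings or the number of fish behind a library. The p-values therefore measure the spread between libraries, which may be technical. In these sorted pools, fewer cells of a type and less RNA per cell cannot be told apart.

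Metaphocytes are macrophage-like cells of the barrier tissues of fish that arise outside the blood lineage and carry both myeloid and epithelial features. The gene spic encodes an Ets-family transcription factor related to Spi1 (PU.1), a central regulator of myeloid genes. The submitters describe the sorted population as the progenitors of metaphocytes. The question addressed is whether the same genes depend on spic, and to the same degree, in epidermis and in gill.

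The targeted gene was lower in the mutants of both tissues. In sibling gill spic stood at 140, 244, 263, 317 and 500 TPM, and in mutant gill at a lowest of 2.92, a median of 12.6 and a highest of 53.3 TPM. Sibling epidermis ranged from 561 to 760 TPM with a median of 621, and mutant epidermis from 7.37 to 125 TPM with a median of 32.6. No mutant library reached a sibling library of its own tissue, and all sibling gill libraries lay below all sibling epidermis libraries. The mutant effect on spic was -4.55 in epidermis and -4.28 in gill, with a difference of 0.27 (SE 0.890, 95% interval -1.54 to 2.08; limma, adjusted p = 0.951). The sign of this difference turned to -0.29 after quantile normalization and to -0.33 after median centring of the libraries.

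The sort was checked against defining markers of the cell types it could hold. The epithelial gene epcam was detected in all 27 libraries, with group medians of 1950 to 3252 TPM, and its tissue difference did not pass (0.86, 95% interval -0.15 to 1.88; limma, adjusted p = 0.613). The macrophage gene mpeg1.1, whose reporter the gate had selected against, had a median of 216 TPM in sibling epidermis and a range of 0.557 to 1.85 TPM in mutant epidermis. Its levels in sibling gill were 12.2, 116, 135, 140 and 113 TPM, against a median of 1.57 TPM in mutant gill. The pan-leukocyte gene ptprc, the macrophage receptor csf1ra and the neutrophil peroxidase mpx were at 0 TPM in all 27 libraries. The lymphocyte genes cd4-1, cd8a and lck and the haemoglobin gene hbaa1 had medians of 0 TPM in all 4 groups, while single libraries reached 21.0 TPM for cd4-1 in sibling gill, and 33.8 TPM for cd8a and 14.8 TPM for hbaa1 in mutant gill. The ionocyte factor gene foxi3a had medians of 0 to 7.42 TPM and reached 1578 TPM in 1 mutant gill library and 543 TPM in 1 mutant epidermis library, and foxi3b reached 841 TPM in mutant gill. The B-cell gene cd79b reached 17.2 TPM in sibling epidermis, the fibroblast gene col1a2 16.7 TPM in sibling gill and the erythrocyte gene alas2 11.1 TPM in mutant epidermis. In mutant gill the endothelial gene cdh5 reached 24.4 TPM, the mucous cell gene muc5.1 29.0 TPM and the fibroblast gene pdgfra 14.1 TPM. The part of these genes in the results was not tested.

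Libraries of the mutants resembled each other less than those of the siblings. The median Pearson correlation of a library with the others of its group, over the tested genes, ranged from 0.503 to 0.553 in mutant epidermis and from 0.505 to 0.565 in mutant gill. In the siblings it ranged from 0.676 to 0.713 in epidermis and from 0.632 to 0.670 in gill. The lowest value belonged to mutant epidermis 7, which was also the lowest mutant epidermis library for 5 of the 6 genes with the largest shared rises described below. Fewest genes reached 1 TPM in 3 libraries, mutant epidermis 4, mutant epidermis 2 and mutant gill 8, at 6469, 6663 and 6755 genes, against group medians of 7618 to 9226. Without these 3 libraries the calls of socs3a (adjusted p = 0.0835) and gpr157 (adjusted p = 0.0603) in the tissue test described below were lost.

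Few genes showed a tissue dependence of the mutant effect that passed the test. Of the 13465 genes, 8 (0.0594%) had an adjusted p under 0.05 (limma with Benjamini-Hochberg adjustment over all tested genes), 5 (0.0371%) with a more positive effect in gill and 3 (0.0223%) with a more positive effect in epidermis. At an unadjusted p under 0.05 there were 1315 genes (9.77%), 852 of them (6.33%) with a more positive effect in gill and 463 (3.44%) with a more positive effect in epidermis. Quantile normalization also called 8 genes, split 3 to 5, and median centring called 8, split 1 to 7. Of the original 8 genes, 6 were among those called after quantile normalization and 4 after median centring. The median tissue difference over all genes was 0.27, 0.02 after quantile normalization and -0.33 after median centring, so that list medians are read against 0.27 below. Besides leaving out libraries, 14 alternatives were fitted, among them the number of detected genes as covariate and a minimum change of 1 log2 unit. Of the 13465 genes, 673 reached 1 TPM in 5 libraries through 1 group alone. Among them were 2 of the 8, esr2a and gpr157, whose adjusted p is not read as support for a tissue difference. Leaving out 1 library moved this count by more than 1.5 times for 17 of the 27 libraries. It was 26 without mutant gill 8, 17 without mutant epidermis 1, 15 without sibling gill 2 and 14 without mutant epidermis 7, mutant gill 1 or mutant gill 7. It was 5 without sibling epidermis 1 or 2 or sibling gill 1, and 4 without mutant epidermis 2 or 4 or mutant gill 4. It was 3 without sibling epidermis 4 or 5, mutant epidermis 3 or sibling gill 3, and 2 without sibling epidermis 3.

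The mutant effects within each tissue were far more numerous. In epidermis 1726 genes (12.8%) passed, 556 (4.13%) higher and 1170 (8.69%) lower in mutants. In gill 836 genes (6.21%) passed, 315 (2.34%) higher and 521 (3.87%) lower, and without sibling gill 4 the count was 520. Of these calls, 189 in epidermis and 114 in gill were of genes that reached 1 TPM in 5 libraries through 1 group alone. Such calls are not read as support for a mutant effect. The shares of all tested genes given below include them, and how many each gene list holds was not counted. The epidermis split moved to 889 higher and 1006 lower with quantile normalization and to 847 higher and 690 lower with median centring. Gill and epidermis differed in 129 genes (0.958%) among siblings, 85 (0.631%) higher and 44 (0.327%) lower in gill, a count that was 76 when sibling gill 5 was left out, 82 for sibling gill 1 and 84 for sibling epidermis 6. Among mutants they differed in 569 genes (4.23%), 458 (3.40%) higher and 111 (0.824%) lower in gill. Quantile normalization split the mutant tissue difference into 270 higher and 224 lower, and median centring into 121 higher and 255 lower.

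**Figure D1:**
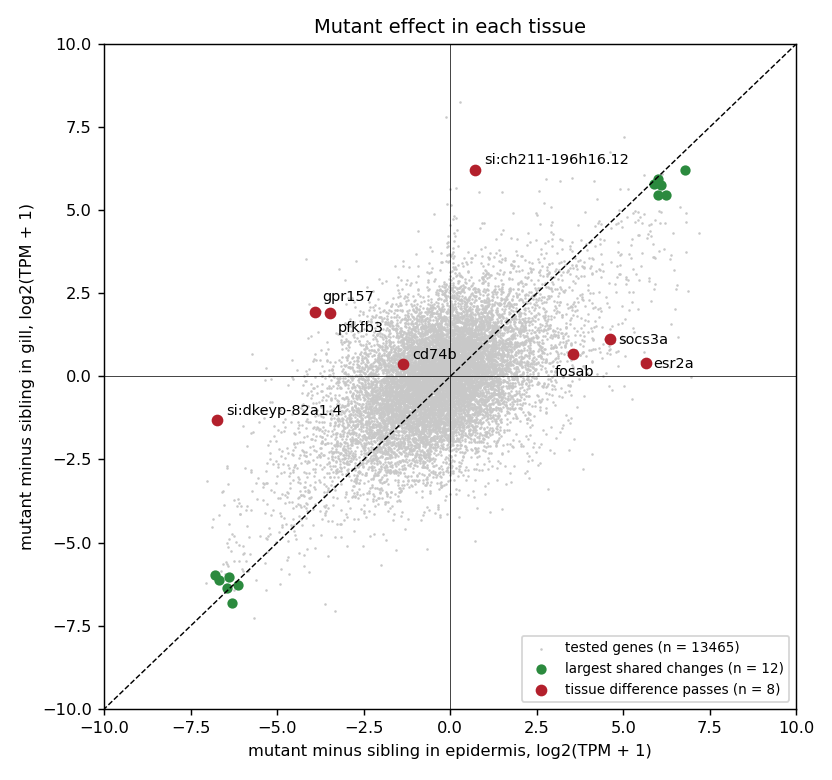
Each point is 1 of 13465 genes, placed by its mutant minus sibling difference in epidermis (horizontal axis) and in gill (vertical axis), both in log2(TPM + 1), with the dashed line marking equal effects. The 8 genes whose tissue difference passed (red) lie away from the line, and the 12 genes with the largest shared changes (green) lie near it at both ends. The choice of the green genes favours similar effects in both tissues.

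Most genes changed in one tissue had the same sign in the other. Of the 556 genes higher in mutant epidermis, 499 (89.7%) also had a positive value in gill, where 49.3% of all tested genes were positive. Of the 1170 genes lower in mutant epidermis, 1026 (87.7%) had a negative value in gill, where 50.7% of all genes were negative. Their median change was -3.19 in epidermis, where they were selected, and -1.52 in gill. For the 521 genes lower in mutant gill the medians were -3.46 in gill, where they were selected, and -2.77 in epidermis, and 494 of them (94.8%) were negative in epidermis against 57.9% of all genes. A set chosen for its change in one tissue has a larger value there through that choice, and no test was made on these medians. The comparisons of the 2 tissues share no libraries.

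Calls in both tissues in the same direction were made for 461 genes, in epidermis alone for 1264 and in gill alone for 374, and 1 gene was called in opposite directions. Of the 8 genes that passed the tissue test, 7 were called in epidermis alone and 1 in gill alone. The remaining genes called in one tissue alone did not pass the test of the difference, and their effects are not shown to differ between tissues. The 95% interval of the tissue difference reached to either side of the estimate by a median of 2.68 log2 units, with quartiles of 2.23 and 3.08. For 23 genes the whole interval lay between -1 and 1, and for 776 genes between -2 and 2. The 8 called differences ranged in size from 1.72 to 5.86.

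The clone-named gene si:ch211-196h16.12 (ENSDARG00000028276), a protein-coding gene in RefSeq with no described role in the tables used here, had the smallest p. The sibling gill libraries stood at 576, 341, 82.8, 22.8 and 148 TPM, and in mutant gill at a lowest of 6167, a median of 11966 and a highest of 17887 TPM. In epidermis the siblings ranged from 9.99 to 36.4 TPM and the mutants from 10.8 to 107 TPM. Every mutant gill library was above every library of the other 3 groups, while the epidermis groups overlapped. The mutant effect was 6.22 in gill (adjusted p = 8.6e-09) and 0.72 in epidermis (adjusted p = 0.443), with a tissue difference of 5.50 (95% interval 3.90 to 7.10; limma, adjusted p = 0.000596). Sibling gill was also above sibling epidermis by 2.73 (limma, adjusted p = 0.0125), a call that ended without sibling gill 1 (adjusted p = 0.0759) or sibling gill 2 (0.0604). The tissue difference of the mutant effect passed in all 27 fits with 1 library left out, with a highest adjusted p of 0.00320. Its size depended on the low values, and was 9.86, outside the interval above, with values below 1% of the gene's maximum set to 0. This gene and si:dkeyp-82a1.4 were named after their values were seen, because the count of passing genes was small.

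The gene fosab, the zebrafish orthologue of FOS and a subunit of the immediate-early factor AP-1, rose in mutant epidermis. Sibling epidermis ranged from 160 to 537 TPM with a median of 240, and mutant epidermis from 1834 to 5251 TPM with a median of 3144. Levels in sibling gill were 1680, 1424, 1981, 1039 and 2006 TPM, and mutant gill at 784 to 5745 TPM with a median of 2432. The epidermis groups did not overlap and the gill groups did, with sibling gill already wholly above sibling epidermis. The effect was 3.55 in epidermis (adjusted p = 1.96e-09) and 0.66 in gill (adjusted p = 0.317), with a tissue difference of -2.88 (95% interval -3.88 to -1.88; limma, adjusted p = 0.00819). Gill exceeded epidermis by 2.57 among siblings (adjusted p = 0.000115) and stood at -0.31 among mutants (limma, adjusted p = 0.673). The tissue difference passed in all 27 fits with 1 library left out, with a highest adjusted p of 0.0353.

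A second gene of the immediate-early and stress list, socs3a, which encodes a feedback inhibitor of cytokine signalling through JAK and STAT, had the same arrangement. Its level in sibling epidermis was 23.4 to 89.9 TPM with a median of 37.3, and in mutant epidermis 350 to 2569 TPM with a median of 1362. The 5 sibling gill libraries held 412, 347, 330, 217 and 726 TPM, and mutant gill held 191 to 2134 TPM with a median of 1093. The epidermis groups were apart, the gill groups overlapped, and sibling gill was wholly above sibling epidermis. The effect was 4.63 in epidermis (adjusted p = 1.35e-08) and 1.13 in gill (adjusted p = 0.220), with a tissue difference of -3.50 (95% interval -4.94 to -2.07; limma, adjusted p = 0.0408). Among siblings gill exceeded epidermis by 3.17 (limma, adjusted p = 0.00108). Among 14 other alternatives 8 kept the call, which ended with the covariate (adjusted p = 0.0628), with a replicate block (0.0564), without the 3 libraries with fewest genes (0.0835), with low values set to 0 (0.102), without the filter and with a minimum change. The tissue difference fell short in 14 of 27 fits with 1 library left out, 5 of them without a sibling epidermis library, 5 without a mutant epidermis library, 3 without a sibling gill library and 1 without a mutant gill library, with a highest adjusted p of 0.0955.

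**Figure D2:**
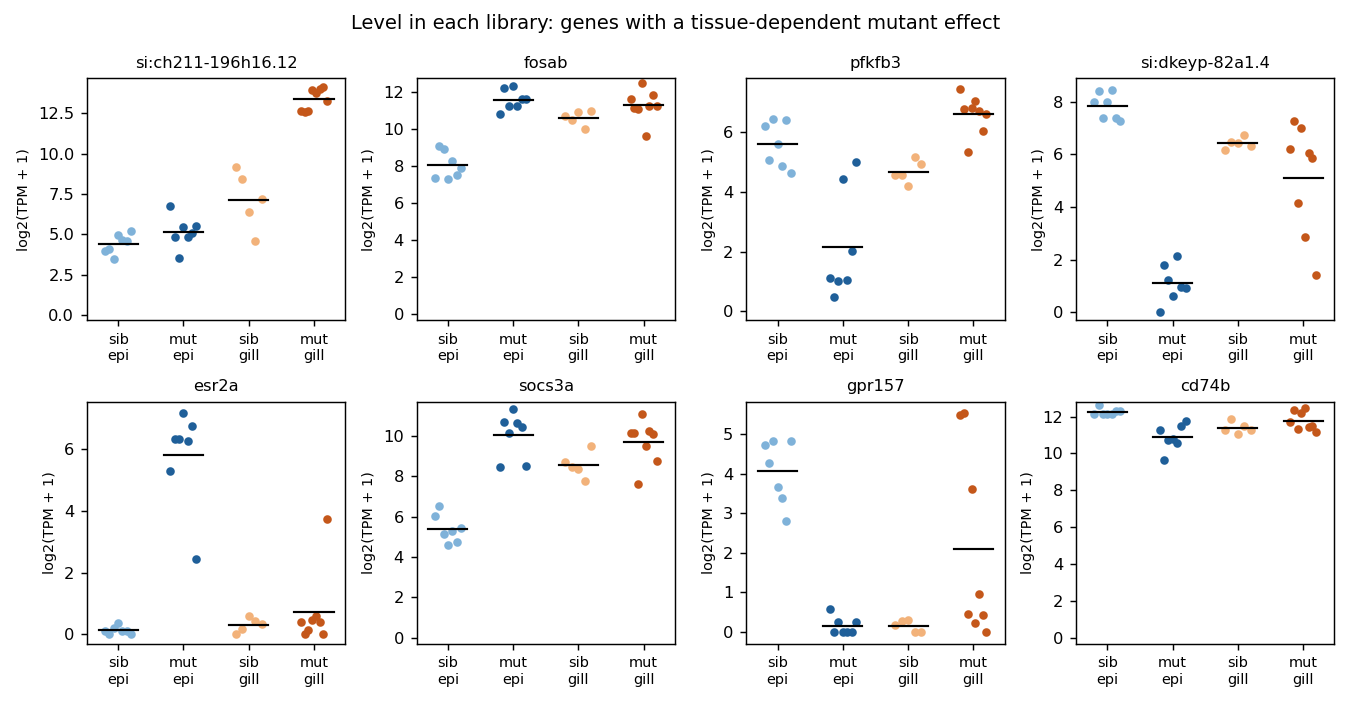
Each panel shows 1 of the 8 genes whose tissue difference passed, with the level of each library in log2(TPM + 1) on the vertical axis, the 4 groups on the horizontal axis (sib, sibling; mut, mutant; epi, epidermis) and a bar at the group mean. In si:ch211-196h16.12 the mutant gill libraries stand alone at 6167 to 17887 TPM, and in fosab and socs3a the sibling epidermis libraries stand alone at the low end.

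The gene pfkfb3 encodes an enzyme that makes fructose 2,6-bisphosphate, an activator of glycolysis, and is a known target of hypoxia-inducible factors. Its level in sibling epidermis was 23.9 to 87.5 TPM with a median of 48.3, and in mutant epidermis 0.383 to 31.2 TPM with a median of 1.15. Sibling gill stood at 22.6, 22.6, 17.3, 35.3 and 29.8 TPM, and mutant gill at 39.9 to 176 TPM with a median of 107. The gill groups did not overlap, with mutants higher, whereas the epidermis groups overlapped through the highest mutant libraries. The effect was -3.46 in epidermis (adjusted p = 0.000441) and 1.92 in gill (adjusted p = 0.120), with a tissue difference of 5.38 (95% interval 3.36 to 7.41; limma, adjusted p = 0.0218). Mutant gill exceeded mutant epidermis by 4.45 (adjusted p = 7.67e-05), and the siblings of the 2 tissues differed by -0.93 (limma, adjusted p = 0.874). The tissue difference fell short without sibling epidermis 3 (adjusted p = 0.0605), without sibling gill 3 (adjusted p = 0.0561), after median centring (adjusted p = 0.0692) and with a minimum change.

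The clone-named gene si:dkeyp-82a1.4 (ENSDARG00000069103), with no described role in the tables used here, fell in mutant epidermis. Sibling epidermis ranged from 155 to 351 TPM with a median of 252, and mutant epidermis from 0 to 3.43 TPM with a median of 0.940. Levels in sibling gill were 70.5, 86.3, 84.0, 106 and 78.1 TPM, and mutant gill ranged from 1.66 to 154 TPM with a median of 61.3. The epidermis groups lay apart, and the mutant gill libraries were spread from far below to above the sibling gill range. The effect was -6.74 in epidermis (adjusted p = 2.23e-08) and -1.31 in gill (adjusted p = 0.368), with a tissue difference of 5.43 (95% interval 3.28 to 7.57; limma, adjusted p = 0.0376). The call ended after quantile normalization (adjusted p = 0.0643), after median centring (0.0692), with the detected-genes covariate (0.0628) and with a minimum change. Leaving out 1 library ended it in 11 of 27 fits, 5 of them without a sibling epidermis library, 3 without a sibling gill library, 2 without a mutant epidermis library and 1 without a mutant gill library, with a highest adjusted p of 0.0666.

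The gene esr2a encodes an oestrogen receptor of the beta type. It was almost absent from siblings, at 0 to 0.287 TPM in epidermis and at 0, 0.123, 0.517, 0.354 and 0.263 TPM in gill. In mutant epidermis it ranged from 4.49 to 142 TPM with a median of 78.9, and in mutant gill from 0 to 12.2 TPM with a median of 0.331. The mutant epidermis libraries were apart from their siblings, whereas in gill 1 library, mutant gill 8, was the only one above 1 TPM. The effect was 5.66 in epidermis (adjusted p = 5.48e-07) and 0.41 in gill (adjusted p = 0.827), with a tissue difference of -5.25 (95% interval -7.39 to -3.12; limma, adjusted p = 0.0408). Leaving out 1 library ended the call in 18 of 27 fits, namely without each of the 7 sibling epidermis libraries, 4 of the sibling gill, 4 of the mutant gill and 3 of the mutant epidermis libraries, with a highest adjusted p of 0.0806. It also ended with the covariate (adjusted p = 0.0628) and with a minimum change. The gene entered the test through mutant epidermis alone, the group where it was high, with 1 other library at 1 TPM or more. Its adjusted p is therefore not read as support for a tissue difference, although the gene passed without the filter as well. Without mutant epidermis 7, the lowest of its group, the difference was -5.81 (limma, adjusted p = 0.00367).

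The gene gpr157 encodes a G protein-coupled receptor. It was present in sibling epidermis at 6.01 to 27.7 TPM with a median of 18.3, and at 0 to 0.500 TPM in mutant epidermis. The sibling gill libraries held 0.120, 0.211, 0.223, 0 and 0 TPM, and mutant gill ranged from 0 to 45.4 TPM with a median of 0.660. The epidermis groups were apart, and in gill the mutant range contained the whole sibling range, with 3 of 8 mutant libraries at 10 TPM or more. The effect was -3.92 in epidermis (adjusted p = 0.000844) and 1.94 in gill (adjusted p = 0.206), with a tissue difference of 5.86 (95% interval 3.44 to 8.28; limma, adjusted p = 0.0408). The difference of sibling gill from sibling epidermis was -3.93 (limma, adjusted p = 0.0197), a call that ended without sibling gill 5 (0.0574). The gene entered the test through sibling epidermis alone, the group where it was high, with 3 other libraries at 1 TPM or more. Its adjusted p is therefore not read as support for a tissue difference, although the gene passed without the filter as well. With sibling gill at 0.223 TPM or less, a fall like that in epidermis could not have been seen in gill. The call ended with a pseudocount of 10 (2.16; adjusted p = 0.144), after median centring (0.0794), with the covariate (0.0628), without the 3 libraries with fewest genes (0.0603) and with a minimum change. The tissue difference of the mutant effect fell short in 16 of 27 fits with 1 library left out, 6 of them without a sibling epidermis library, 5 without a mutant epidermis library, 4 without a sibling gill library and 1 without a mutant gill library, with a highest adjusted p of 0.0897.

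**Figure D3:**
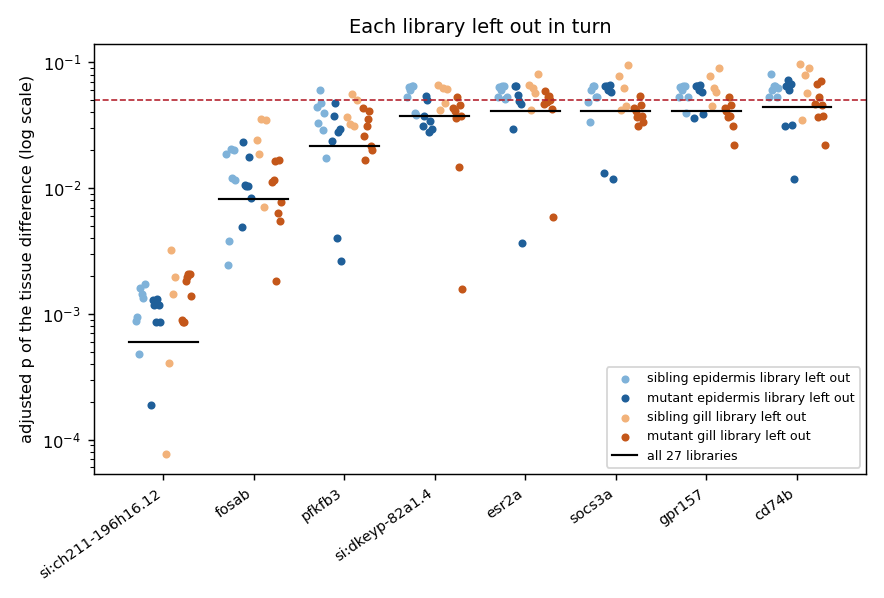
For each of the 8 genes the vertical axis, a log scale, shows the adjusted p of the tissue difference, with a bar for all 27 libraries, a point for each fit without 1 library coloured by the group of that library, and a dashed line at 0.05. The points of si:ch211-196h16.12 and fosab all lie below 0.05, and each of the other 6 genes has points above it.

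The eighth gene was cd74b, which encodes the invariant chain that guides MHC class II molecules to the endosome. Sibling epidermis ranged from 4416 to 6335 TPM with a median of 4566, and mutant epidermis from 805 to 3492 TPM with a median of 1745. Sibling gill stood at 2484, 3744, 2143, 2894 and 2482 TPM, and mutant gill ranged from 2296 to 5598 TPM with a median of 3119. The epidermis groups lay apart and the gill groups overlapped. The effect was -1.36 in epidermis (adjusted p = 0.000131) and 0.37 in gill (adjusted p = 0.478), with a tissue difference of 1.72 (limma, adjusted p = 0.0443). The call ended in 18 of 27 fits with 1 library left out, namely without each of the 7 sibling epidermis libraries, 4 of the sibling gill, 4 of the mutant epidermis and 3 of the mutant gill libraries. The highest adjusted p of these fits was 0.0980, when sibling gill 1 was left out. Among 14 other alternatives cd74b passed in 7. It fell short after median centring (1.13; adjusted p = 0.168), after quantile normalization (1.45; adjusted p = 0.0624), with a pseudocount of 10, without the filter, with the covariate, with a replicate block (adjusted p = 0.0539) and with a minimum change. Mutant gill exceeded mutant epidermis by 0.87 (limma, adjusted p = 0.0272), a call that ended without mutant epidermis 2 or 5 or mutant gill 2, 4 or 5, with a highest adjusted p of 0.0784 without mutant epidermis 2.

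The other genes of antigen presentation on MHC class II had values in the same direction. Of 8 tested members of the list, cd74b was the 1 that passed the tissue test, and all 8 values were above 0, with a median of 1.66 against 0.27 over all genes. In epidermis 5 of the 8 fell and none rose, against 8.69% and 4.13% of all tested genes. In gill none passed in either direction, where 3.87% of all tested genes fell and 2.34% rose. At these shares a list of 8 genes could well hold no gill call. Without the 3 libraries with fewest genes 3 fell in epidermis. The second invariant chain gene cd74a had a range of 3733 to 5788 TPM in sibling epidermis and 348 to 3088 TPM in mutant epidermis. It stood at 1978, 3709, 3570, 3347 and 3102 TPM in sibling gill and at 1160 to 3838 TPM in mutant gill, so that the groups overlapped in gill alone. Its effect was -1.83 in epidermis (adjusted p = 0.000134) and -0.56 in gill (adjusted p = 0.399), with a tissue difference of 1.26 (limma, adjusted p = 0.334). The class II chain gene mhc2a had effects of -1.60 in epidermis (adjusted p = 0.00309) and -0.01 in gill (adjusted p = 0.994), and a tissue difference of 1.59 (limma, adjusted p = 0.265). After median centring 7 of the 8 values were above 0, with a median of 1.06 against -0.33 over all genes, and no member passed. The summed level of the 10 genes of the list in the table had medians of 16221, 4509, 9857 and 7657 TPM in sibling epidermis, mutant epidermis, sibling gill and mutant gill.

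The immediate-early and stress list, which holds FOS, JUN, EGR and KLF factors, feedback inhibitors and heat shock genes, held 2 calls. Of its 51 tested members 2 passed the tissue test, both with the more positive effect in epidermis, namely fosab and socs3a. In epidermis 18 rose and 3 fell, where 4.13% of all tested genes rose and 8.69% fell. In gill few members were called, 3 higher and 2 lower, where 2.34% and 3.87% of all genes were. The median tissue difference was -0.92 against 0.27 over all genes, and 12 of the 51 values (23.5%) were above 0, against 57.5% of all genes. Genes of this kind are also induced by tissue dissociation, whose part here was not tested. The summed level of the list had a median of 10077 TPM in sibling epidermis, with a range of 6178 to 13441. The other medians were 21643 TPM in mutant epidermis and, for gill, 23562 TPM among siblings and 32356 TPM among mutants.

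Several other immediate-early genes rose in epidermis without passing in gill or in the tissue test. The AP-1 subunit gene junba had mean levels of 319 and 1465 TPM in sibling and mutant epidermis and of 1390 and 2466 TPM in sibling and mutant gill, with a tissue difference of -1.42 (limma, adjusted p = 0.285). The gene ier5l, an immediate early response gene, ranged from 0.729 to 29.1 TPM in sibling epidermis and from 55.5 to 362 TPM in mutant epidermis. In sibling gill it stood at 55.3, 32.8, 55.9, 1.54 and 72.6 TPM and in mutant gill at 2.37 to 102 TPM, so that the groups were apart in epidermis alone. Its tissue difference was -4.39 (95% interval -7.07 to -1.71; limma, adjusted p = 0.189). Members that rose in both tissues were the repressor gene egr4 (4.79 in epidermis and 4.58 in gill), the cytokine inhibitor gene socs3b (3.77 and 3.01) and the anti-proliferative gene btg1 (2.36 and 1.58).

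The hypoxia response list held the remaining call. Of its 23 tested members pfkfb3 was the 1 that passed, and 18 of 23 values (78.3%) were above 0, with a median of 1.25 against 0.27 over all genes. In epidermis 1 member rose and 3 fell, and in gill 2 rose and 1 fell. These are few genes, and the shares of all tested genes were 4.13% and 8.69% in epidermis and 2.34% and 3.87% in gill. The gene epas1b, which encodes the hypoxia-inducible factor HIF-2 alpha, was at 0.531 TPM or less in all sibling and mutant epidermis libraries. Sibling gill ranged from 0.470 to 30.8 TPM with a median of 3.75, and mutant gill ranged from 58.3 to 218 TPM with a median of 111, above every library of the other groups. Its effect was 4.32 in gill and 0.11 in epidermis, with a tissue difference of 4.21 that did not pass (95% interval 2.13 to 6.28; limma, adjusted p = 0.0960). It entered the test through mutant gill, where it was high. The paralogous alpha subunit gene hif1aa had means of 0.0199 and 26.6 TPM in sibling and mutant epidermis (2.29; limma, adjusted p = 0.0200). Its means were 0.0752 and 0.359 TPM in sibling and mutant gill (0.20; adjusted p = 0.921). The gene reached 1 TPM in 4 mutant epidermis libraries and 1 other library, so that it entered the test mostly through the group where it was high. Its tissue difference did not pass (95% interval -4.10 to -0.09; limma, adjusted p = 0.483).

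The genes of highest rank that did not pass were named by the same rule. The largest difference of these was that of cyp1a, a monooxygenase gene induced through the aryl hydrocarbon receptor. It ranged from 0.888 to 126 TPM in sibling epidermis and from 0 to 2.01 TPM in mutant epidermis. Sibling gill stood at 42.5, 0.305, 1.77, 0.330 and 0.218 TPM, and mutant gill ranged from 2.17 to 404 TPM with a median of 62.5. Both pairs overlapped, and in gill the overlap came from sibling gill 1, without which the tissue difference was 8.67. With all libraries it was 7.71 (95% interval 4.37 to 11.05; limma, adjusted p = 0.0633), and it passed in 8 of the 27 fits with 1 library left out.

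A single gene, ppap2d, was called in both tissues in opposite directions. Its symbol is that of the phosphatidic acid phosphatases. It ranged from 0.169 to 41.9 TPM in sibling epidermis and from 0 to 0.606 TPM in mutant epidermis. Among sibling gill libraries it was at 0.141, 0, 0.521, 0 and 0 TPM, and in mutant gill at 0.268 to 71.3 TPM with a median of 18.3. Every pair of groups overlapped in these ranges. Its effect was -2.74 in epidermis (adjusted p = 0.0492) and 3.46 in gill (adjusted p = 0.0314), with a tissue difference of 6.20 (limma, adjusted p = 0.0641). Leaving out 1 library ended the epidermis call in 19 fits, with a highest adjusted p of 0.113, and the gill call in 8, with a highest of 0.0768.

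The genes kitlgb, spon1b, fgd4b and rbfa had adjusted p of 0.0633 or 0.0641 in the tissue test. The gene kitlgb, which encodes a ligand of the receptor tyrosine kinase Kit, ranged from 0.314 to 51.3 TPM in sibling epidermis and from 68.1 to 1073 TPM in mutant epidermis, with medians of 1.47 and 463 TPM. Sibling gill stood at 0.739, 1.30, 2.28, 1.25 and 0.617 TPM, and mutant gill ranged from 0.341 to 14.2 TPM. Mutant epidermis was above every other library, and the tissue difference was -5.40 (95% interval -7.82 to -2.98). The gene spon1b, which encodes a secreted spondin of the extracellular matrix, was high in part of 2 groups only. It reached 61.2 TPM in mutant epidermis, with a mean of 28.5 TPM, and stood at 22.7, 0.834, 2.64, 0.377 and 17.1 TPM in sibling gill, against at most 3.95 TPM in sibling epidermis and 0.424 TPM in mutant gill. The tissue difference of spon1b was -5.65. The gene fgd4b, which encodes an exchange factor of the GTPase Cdc42, stood at 1.97, 17.2, 16.9, 1.21 and 28.0 TPM in sibling gill. In the other 3 groups its highest level was 0.297 TPM, and its tissue difference was -3.08. It entered the test through sibling gill alone, the group where it was high, so that its adjusted p is not read as support for a tissue difference. Likewise rbfa entered through mutant gill and spon1b through mutant epidermis. The gene rbfa, which in human encodes a ribosome-binding factor of mitochondria, was at 0 TPM in all 5 sibling gill libraries and ranged from 1.64 to 151 TPM in mutant gill, with a tissue difference of 5.35.

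**Figure D4:**
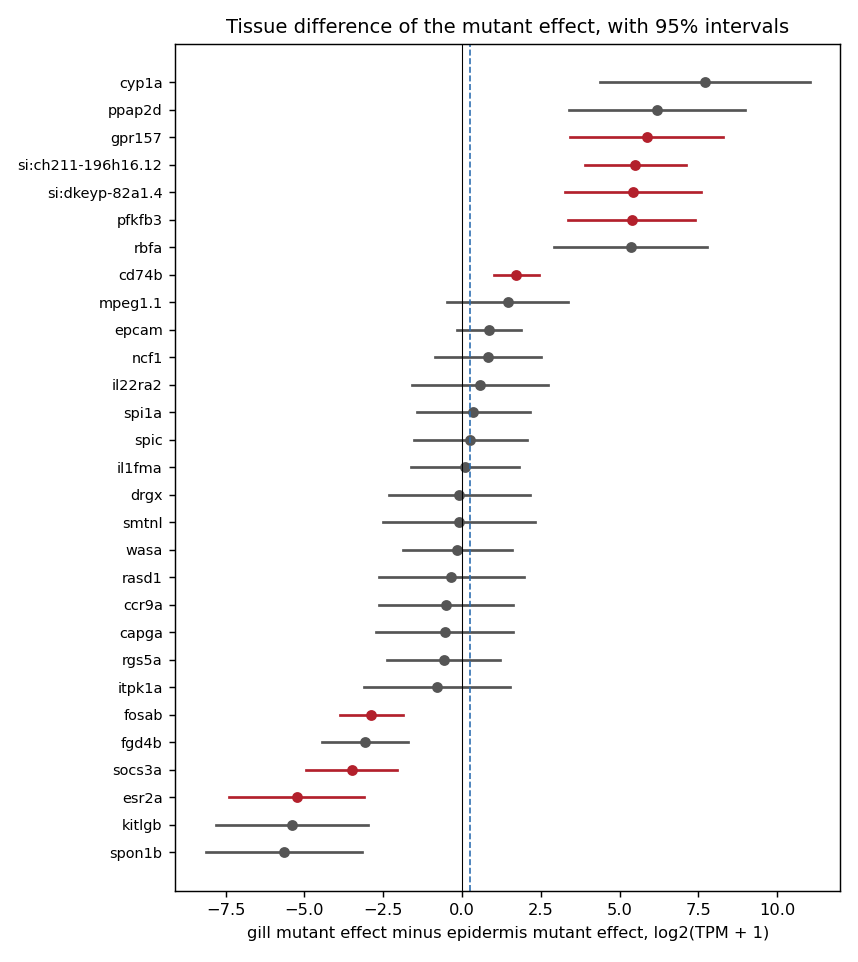
Points are the tissue differences of the mutant effect (horizontal axis, gill effect minus epidermis effect in log2(TPM + 1)) with 95% intervals as bars for the named genes, red where the adjusted p is under 0.05. The solid line is at 0 and the dashed line at 0.27, the median of all tested genes, and the bars of the genes with large shared changes, from itpk1a to ncf1, all cover both lines. The choice of those genes favours small tissue differences.

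The genes with the largest changes in both tissues had tissue differences between -0.79 and 0.82, none of which passed (limma, adjusted p from 0.811 to 0.992). The rule chose genes called in the same direction in both tissues, ranked by the smaller of their changes in epidermis and gill. This choice favours similar effects. The changes, the small tissue differences and their adjusted p are therefore a description and are not read as support for equal effects. Among the genes that were higher, rgs5a, a regulator of G protein signalling, ranged from 6.26 to 129 TPM in sibling epidermis and from 185 to 4627 TPM in mutant epidermis. It stood at 18.2, 12.6, 16.4, 11.6 and 8.66 TPM in sibling gill and at 588 to 1611 TPM in mutant gill. The groups were apart in both tissues, and the tissue difference was -0.58 (95% interval -2.37 to 1.21). The homeobox gene drgx, a factor of sensory neurons, was apart in both tissues too. It reached at most 1.59 TPM in either sibling group and at least 13.6 TPM in every mutant library, with a tissue difference of -0.08 (95% interval -2.31 to 2.15). Mutant epidermis 7 was the lowest library of its group for 5 of these 6 genes, and without it the tissue difference of rgs5a was -1.15 and that of itpk1a, an inositol phosphate kinase gene, was -1.48. The other genes of this set were smtnl, rasd1 and capga. The groups of capga were apart in both tissues, those of smtnl and itpk1a overlapped in epidermis alone, and those of rasd1 overlapped in both.

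Among the genes that were lower in both tissues, 6 of immune function were named. The gene il1fma, which encodes a cytokine of the interleukin-1 family, ranged from 346 to 532 TPM in sibling epidermis and from 1.43 to 6.51 TPM in mutant epidermis. In sibling gill it stood at 169, 764, 357, 513 and 629 TPM, and in mutant gill it had a lowest of 0 and a mean of 5.28 TPM. Its effects were -6.47 in epidermis and -6.37 in gill, with a tissue difference of 0.09 (95% interval -1.62 to 1.80). The chemokine receptor gene ccr9a had effects of -6.31 and -6.82 and the WASP gene wasa, an activator of actin branching, of -6.13 and -6.27. The Ets factor gene spi1a, a paralogue of PU.1, had effects of -6.41 and -6.05, and the NADPH oxidase subunit gene ncf1 of -6.80 and -5.98. The interleukin-22 binding protein gene il22ra2 had effects of -6.69 and -6.13. For all 6 genes the sibling and mutant libraries were apart in both tissues, and mutant gill 8 was at 0 TPM for 5 of them. The choice by large falls in both tissues favours such separation, and its share among all tested genes was not counted.

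Myeloid genes as a list were low in the mutants of both tissues. Of 18 tested members 12 fell in epidermis and 11 in gill, where 8.69% and 3.87% of all tested genes fell. No member rose in either tissue. None passed the tissue test, and 2 of the 18, cebpb and cyba, had an unadjusted p under 0.05 (limma), a share near the 9.77% of all tested genes. The median change was -4.35 in epidermis and -2.93 in gill, and the median tissue difference was 0.86 against 0.27 over all genes. The oxidase subunit gene cyba ranged from 717 to 1515 TPM in sibling epidermis and from 4.73 to 85.7 TPM in mutant epidermis, and in sibling gill stood at 770, 476, 868, 1044 and 678 TPM. In mutant gill it ranged from 2.93 to 487 TPM with a median of 148, so that the gill groups met at their ends. Its tissue difference was 2.47 (95% interval 0.33 to 4.61; limma, adjusted p = 0.415). The myeloid factor gene cebpb had means of 82.2 and 230 TPM in sibling and mutant epidermis and of 1151 and 510 TPM in gill, with a tissue difference of -3.10 (limma, adjusted p = 0.323).

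The leukocyte cytoskeleton list had 13 of 16 tested members lower in epidermis and 12 in gill, against 8.69% and 3.87% of all tested genes. Its median tissue difference was 0.49, and no member passed the tissue test. The small GTPase gene rac2 ranged from 149 to 243 TPM in sibling epidermis and from 1.02 to 2.14 TPM in mutant epidermis. It stood at 62.2, 111, 161, 135 and 112 TPM in sibling gill and at 0.0882 to 52.4 TPM in mutant gill, with a tissue difference of 2.53 (limma, adjusted p = 0.398). Of 19 tested cytokine genes 8 fell in epidermis and 7 in gill, against 8.69% and 3.87% of all tested genes, none rose and none passed the tissue test. The falls numbered 5 and 7 after quantile normalization, with 1 rise in epidermis, and 4 and 7 after median centring. The interleukin-12 subunit gene il12bb had means of 123 and 2.99 TPM in epidermis and of 673 and 4.42 TPM in gill, with a tissue difference of -3.72 (limma, adjusted p = 0.414). Of 15 tested cytokine receptor genes 1 rose and 6 fell in epidermis and 1 rose and 4 fell in gill. The interleukin-13 receptor gene il13ra1 was the 1 that rose in both, by 1.77 and 3.37. Of 7 tested chemokine receptors 2 fell in epidermis and 3 in gill. Beside these receptor counts, 4.13% of all tested genes rose and 8.69% fell in epidermis, and 2.34% rose and 3.87% fell in gill.

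Of 28 tested neuroendocrine and sensory genes 20 rose in mutant epidermis and 13 in mutant gill, and none fell, where 4.13% and 2.34% of all tested genes rose. No member passed the tissue test, 6 of 28 values (21.4%) were above 0, and the median tissue difference was -1.19 against 0.27 over all genes. The zinc finger gene insm1b, a factor of neuroendocrine differentiation, ranged from 0.658 to 1.85 TPM in sibling epidermis and from 5.65 to 685 TPM in mutant epidermis. Its sibling gill levels were 89.1, 251, 4.76, 3.40 and 128 TPM, and in mutant gill at 25.4 to 568 TPM, so that the gill groups overlapped. Its tissue difference was -4.46 (95% interval -7.17 to -1.74; limma, adjusted p = 0.189). The granule protein gene chga had 0.500 to 12.4 TPM in sibling epidermis and 68.5 to 870 TPM in mutant epidermis. Its gill levels were 160, 2.98, 68.3, 1.99 and 27.3 TPM in siblings and 73.8 to 582 TPM in mutants. It rose in gill too (3.74; limma, adjusted p = 0.00277), whereas the gill value of insm1b did not pass (2.03; adjusted p = 0.248). Its tissue difference was -3.09 (limma, adjusted p = 0.296). The summed level of the list in sibling gill had a median of 1343 TPM, with a range of 719 to 1697, above sibling epidermis at 318 TPM, with a range of 184 to 519. In mutants it was 7825 TPM in epidermis and 6238 TPM in gill. The enkephalin gene penka and the tryptophan hydroxylase gene tph1a, of serotonin synthesis, had positive tissue differences of 2.45 and 1.72 (limma, adjusted p = 0.681 and 0.725).

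**Figure D5:**
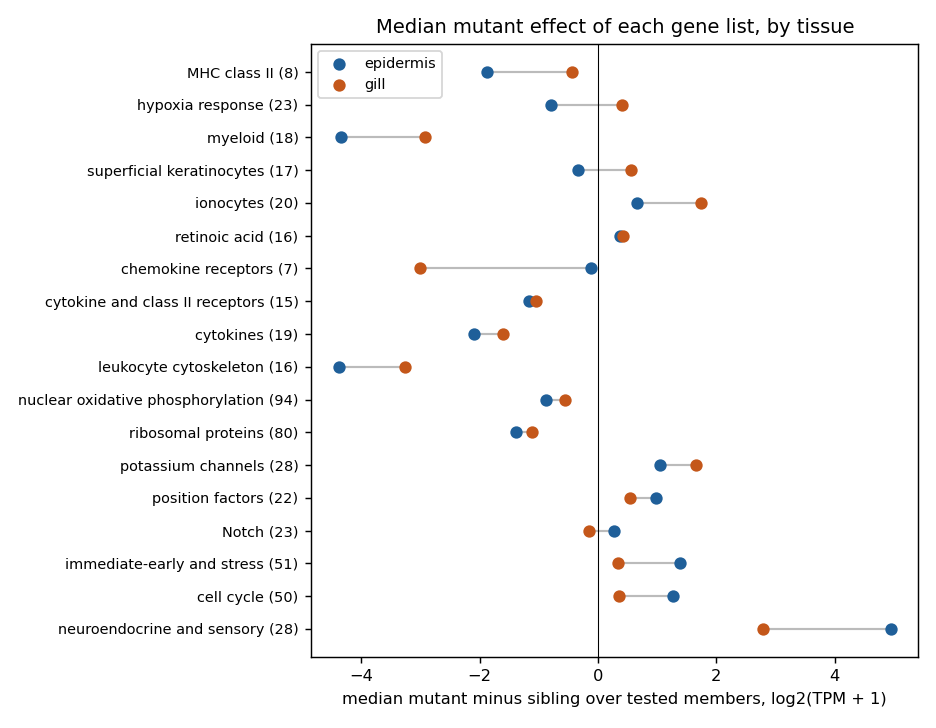
For each gene list with at least 7 tested members (number in brackets), the points give the median mutant minus sibling difference in epidermis (blue) and in gill (orange) on the log2(TPM + 1) scale, and the grey line joins them. The lists are ordered by their median tissue difference, from neuroendocrine and sensory genes at -1.19 to MHC class II genes at 1.66, and no list carries a test.

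Keratinocyte genes changed in both directions. Of 17 tested members of the superficial keratinocyte list 2 rose and 3 fell in epidermis, 1 rose in gill, and none passed the tissue test. Of all tested genes 4.13% rose and 8.69% fell in epidermis, and 2.34% rose in gill. The keratin gene krt4 rose in gill, from 22.5 to 66.5 TPM in siblings (median 27.9) to 227 to 905 TPM in mutants (median 385). In epidermis it ranged from 462 to 983 TPM in siblings and from 224 to 2559 TPM in mutants, and its tissue difference was 2.50 (95% interval 1.24 to 3.77; limma, adjusted p = 0.0990). The E-cadherin gene cdh1 fell in epidermis, from 167 to 320 TPM in siblings to 25.2 to 161 TPM in mutants. In sibling gill it stood at 232, 382, 225, 261 and 256 TPM and in mutant gill at 169 to 658 TPM, with a tissue difference of 2.36 (95% interval 1.18 to 3.55; limma, adjusted p = 0.0990). The annexin gene anxa1a fell in epidermis (-5.99; adjusted p = 4e-06), had a change of -1.49 in gill and a tissue difference of 4.50 (limma, adjusted p = 0.146). The keratin gene krt91, of the basal keratinocyte list with 4 tested members and 1 rise in epidermis, ranged from 399 to 2379 TPM in mutant epidermis and from 4.49 to 321 TPM in mutant gill, without overlap. Sibling epidermis ranged from 6.91 to 440 TPM and sibling gill from 4.55 to 8.86 TPM. Gill was thus already lower among siblings (-3.70; limma, adjusted p = 0.0275), a call that ended in 9 fits with 1 library left out. The effect of krt91 was 3.90 in epidermis and 2.12 in gill, and its tissue difference of -1.78 did not pass.

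Factors that mark position along the body and the pharyngeal arches held 22 tested members, and none passed the tissue test. In epidermis 3 rose and 1 fell, against 4.13% and 8.69% of all tested genes, and in gill 3 rose, against 2.34%. The T-box gene tbx1, a factor of the pharyngeal arches, rose in gill, from at most 1.36 TPM in the 5 siblings to 21.4 to 417 TPM in mutants. It ranged from 0 to 2.68 TPM in sibling epidermis and from 0.141 to 32.8 TPM in mutant epidermis, with a tissue difference of 4.78 (95% interval 2.33 to 7.23; limma, adjusted p = 0.103). Of 16 tested retinoic acid genes 1 rose and 2 fell in epidermis and 2 rose and 1 fell in gill. These are few genes, and of all tested genes 4.13% rose and 8.69% fell in epidermis, and 2.34% and 3.87% in gill. After quantile normalization 4 rose in epidermis. The retinoic acid hydroxylase gene cyp26b1 rose in gill, from 23.9, 153, 4.77, 34.8 and 1.18 TPM in siblings to 22.1 to 1546 TPM in mutants, a call that ended without sibling gill 5 (adjusted p = 0.0574). Its highest level in mutant epidermis was 32.0 TPM, and its tissue difference of 2.80 did not pass (95% interval -0.04 to 5.65).

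Of 20 tested ionocyte genes 2 rose in epidermis and 3 in gill, where 4.13% and 2.34% of all tested genes rose. The ammonium transporter gene rhcgb and the potassium channel gene kcnj1a.1 had gill values carried by few libraries, at 1.02 to 1947 TPM with a median of 5.51, and 0 to 1619 TPM with a median of 6.64. Leaving out 1 library ended each of these gill rises in 21 of 27 fits, and the adjusted p reached 0.125 and 0.115. The gene kcnj1a.1 entered the test through mutant gill, where it was high. Their tissue differences were 3.60 and 2.94 (limma, adjusted p = 0.424 and 0.589). Of 28 tested potassium channel genes 10 rose and 1 fell in epidermis and 9 rose in gill. Of all tested genes 4.13% rose and 8.69% fell in epidermis, and 2.34% rose in gill. The voltage-gated channel gene kcnh5a ranged from 2.46 to 116 TPM in mutant epidermis and from 0 to 6.66 TPM in mutant gill, against at most 0.360 TPM in the siblings of either tissue. Its tissue difference was -3.76 (95% interval -5.93 to -1.59; limma, adjusted p = 0.164). The gene kcnh5a entered the test through mutant epidermis, where it was high, with 4 other libraries at 1 TPM or more. The channel genes kcnt1 and kcnc4 also entered through mutant epidermis alone. The counts of channel rises include kcnh5a in epidermis and kcnj1a.1 in gill, and rises of genes that entered in this way are not read as support.

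Growth and housekeeping lists had no call in the tissue test. Of 50 tested cell cycle genes 5 rose and 1 fell in epidermis, where 4.13% of all tested genes rose and 8.69% fell, and 1 fell in gill, where 3.87% fell. The epidermis rises numbered 11 after quantile normalization and 9 after median centring, and the median tissue difference was -1.13. The cyclin gene ccne2 had means of 2.11 and 33.6 TPM in sibling and mutant epidermis and of 17.5 and 10.9 TPM in gill, with a tissue difference of -4.91 (limma, adjusted p = 0.209). Of 23 tested Notch pathway genes 4 rose and 1 fell in epidermis and 1 fell in gill, against 4.13%, 8.69% and 3.87% of all tested genes. Their median tissue difference was -0.64. The Notch target gene her15.1 ranged from 0 to 1.01 TPM in sibling epidermis and from 2.89 to 313 TPM in mutant epidermis, with a tissue difference of -5.03 (limma, adjusted p = 0.276). Ribosomal protein genes had a median tissue difference of 0.27, equal to that of all genes. Of 80 tested members 66 fell in epidermis and 25 in gill, against 8.69% and 3.87% of all tested genes. The order of these counts turned with the scaling and the libraries. They were 26 and 38 after median centring and 42 and 54 without the 3 libraries with fewest genes. Without those libraries the median was -0.14 and 24 of 80 values were above 0. Of 94 tested genes of nuclear oxidative phosphorylation 5 fell in epidermis and 3 in gill, shares below the 8.69% and 3.87% of all tested genes, and after median centring the counts were 2 and 4. Their median tissue difference was 0.28, and 3 fell in epidermis and 5 in gill after quantile normalization.

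The remaining lists of other cell types had few tested members and no call in the tissue test. They held 6 genes of T and NK cells, 3 of B cells, 4 of neutrophils, 5 of mucous cells, 3 of endothelium and 2 of fibroblasts, and no erythrocyte gene was expressed enough to be tested. The gelatinase gene mmp9, of the neutrophil list, ranged from 130 to 531 TPM in sibling epidermis and stood at 40.4, 68.5, 3.22, 67.2 and 24.3 TPM in sibling gill. It was at 6.20 TPM or less in all mutant libraries, with a tissue difference of 3.11 (limma, adjusted p = 0.236). The summed level of the neutrophil list had group medians of 272, 21.1, 161 and 45.9 TPM in sibling epidermis, mutant epidermis, sibling gill and mutant gill. It ranged from 126 to 224 TPM in sibling gill and from 2.96 to 512 TPM in mutant gill. The summed level of the endothelium list had group medians of 60.2 TPM in sibling gill and at most 4.85 TPM in the other groups. Its range was 21.4 to 67.1 TPM in sibling gill and 0.421 to 205 TPM in mutant gill.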

How the data were processed

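RNA was measured in 27 Smart-seq2 libraries (23 PCR cycles). The authors deposited 1 table of TPM for 32520 genes. The submitters' processing notes name STAR, featureCounts, DESeq2 and the builds GRCz11 and danRer11, without their roles or versions. TPM keeps no depth, so that the depth of a library and counting intervals are unknown.

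From the deposited TPM, log2(TPM + 1) of genes at 1 TPM or more in at least 5 libraries was fitted with limma 3.58.1 (R 4.3.3; 1 mean per group, 23 residual degrees of freedom, trended eBayes). All tests were two-sided, with Benjamini-Hochberg adjustment over 13465 genes and a threshold of 0.05. Differences on this scale understate the change of low genes. Figures were drawn with matplotlib 3.10.9.

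The fit was tested on simulated data. Groups came from the labels.

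Named genes were the passing genes of each direction (up to 12) that averaged 10 TPM or more in some group and had no clone name, filled by smallest p to 6. To these were added genes called in opposite directions, the 6 largest shared changes in each direction, up to 3 members of each of the 26 lists with the smallest p, and spic, mpeg1.1, epcam and spi1a. Outside this rule, 2 clone-named genes, junba, egr4, socs3b, btg1, penka and tph1a were chosen after their values were seen. The comparison, its members and the lists were chosen with earlier results of these data known. Alternatives covered the pseudocount, filter, scaling, weights, a covariate, a block, a minimum fold change and left-out libraries, and 2 were added after the data were seen.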

Additional observations from a re-analysis of the deposited data

Results flagged for a closer look

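The 8 genes that passed the limma test of the tissue difference were si:ch211-196h16.12 (5.50), fosab (-2.88), pfkfb3 (5.38), si:dkeyp-82a1.4 (5.43), esr2a (-5.25), socs3a (-3.50), gpr157 (5.86) and cd74b (1.72), all as gill effect minus epidermis effect on the log2(TPM + 1) scale. Of these, esr2a and gpr157 entered the test through 1 group alone, and their adjusted p is not read as support.

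Among 76 groups of 5 to 8 libraries examined, for 18 genes and the number of genes detected, 12 held a library far from the others by Dixon's criterion, which chance meets in about 1 in 20 groups. In sibling epidermis 1 the level was 28.5 TPM for rbfa, 3.95 TPM for spon1b and 51.3 TPM for kitlgb, where the nearest libraries of the group stood at 0.484, 0.231 and 2.63 TPM. In sibling epidermis 2 cd74b was at 6335 TPM, with the nearest library at 5034 TPM. Sibling gill 1 was highest for cyp1a, at 42.5 TPM against 1.77 TPM in the nearest library, and lowest for mpeg1.1, at 12.2 TPM against 113 TPM. Mutant epidermis 7 was lowest for esr2a, at 4.49 TPM against 38.2 TPM, and mutant gill 8 was highest for it, at 12.2 TPM against 0.498 TPM. In mutant epidermis 5 rbfa was at 2.23 TPM, with the nearest library at 0.306 TPM. The other 3 lay at low levels, namely gpr157 in mutant epidermis 1 at 0.500 TPM and fgd4b in mutant epidermis 3 at 0.195 TPM and in mutant gill 3 at 0.297 TPM.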

How the results depend on the processing

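The count of 8 genes with a tissue-dependent mutant effect became 26 with a pseudocount of 0.1, 13 with a pseudocount of 10, 13 without the filter, 19 with array weights per library, 3 with detected genes as a covariate and 1 with a minimum change of 1 log2 unit. The labels do not say that replicate numbers pair the libraries, and the main fit did not pair them. Deviations from the group means correlated at -0.031 to 0.078 in 36 same-numbered pairs, none over 0.1. Their median was 0.041, against -0.0053 in pairs with different numbers. Of 27 libraries 19 correlated best with a library of their own number, although most libraries of the other groups carried other numbers. The data and not the labels show this structure, and its chance level was not computed. The main fit does not account for anything that libraries of the same number share. A replicate block gave 18 genes, 6 of them among the 8, without socs3a (adjusted p = 0.0564) and cd74b (0.0539). With each library left out in turn the count ranged from 2 to 26. Of 14 other alternatives si:ch211-196h16.12 passed under 14, fosab 13, pfkfb3 12, si:dkeyp-82a1.4 10, gpr157 9, socs3a 8 and cd74b 7, and esr2a passed under 11 of the 13 that tested it. The causes were not tested.

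With the minimum change the counts were 630 genes in epidermis, 245 in gill, 13 between tissues in siblings and 86 in mutants. For siblings the stricter filter gave 72, weights per library 245 and weights per group 240. For mutants no filter gave 358, median centring 376, weights per library 360, weights per group 319 and the covariate 214. With libraries left out the counts ranged from 1473 to 1793 in epidermis, from 520 to 884 in gill, from 76 to 138 between tissues in siblings and from 406 to 643 in mutants. The gill count was 520 without sibling gill 4, and the sibling tissue count 76 without sibling gill 5.

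Tissue differences that did not pass changed sign as follows. For spic the value was -0.29 with quantile normalization, -0.33 with centring, -0.018 with the covariate, -0.10 without the 3 libraries with the fewest genes (chosen after seeing the data) and -0.013 to 0.64 with libraries left out. Quantile normalization and centring gave -0.84 and -0.50 for il1fma, -0.21 and -0.036 for il22ra2 and -0.54 and -0.23 for spi1a. For il1fma the pseudocount of 0.1 gave -0.21 and the covariate -0.32, and for capga the pseudocount of 10 gave 0.19. The covariate gave 0.026 for smtnl. The replicate block gave 0.23 for smtnl, 0.39 for ccr9a and 0.19 for wasa. Without the 3 libraries the values were 0.39 for smtnl, 0.064 for rasd1, 0.41 for ccr9a and 0.33 for wasa. With each gene's values below 1% of its maximum set to 0 (also chosen after seeing the data) they were 0.061 for rgs5a, 0.25 for smtnl, 0.18 for rasd1, 1.18 for ccr9a and 0.71 for wasa. With libraries left out the ranges were -1.08 to 0.11 for agr2, -1.02 to 0.050 for ccr9a, -0.55 to 0.28 for drgx, -1.03 to 0.54 for foxa3, -0.24 to 0.43 for il1fma, -1.84 to 0.13 for pvalb8, -0.88 to 0.71 for rasd1, -0.92 to 0.41 for smtnl, -0.018 to 0.79 for spi1a and -0.41 to 0.15 for wasa.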

Other observations

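In 6 genes 1 library reached at least 500 TPM and no other library 5% of that level. Among the libraries of the other groups, those with the same replicate number as the highest one were above 0 TPM in 9 of 16 cases (56.2%), and those with other numbers in 6 of 102 (5.88%). This count was made after the values were seen and carries no test, and its cause was not tested.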
